A study of Homo sapiens with 6 samples.

Results

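Transcripts of glycolysis and of the cell's response to low oxygen were followed in fibroblasts under RAS signalling. The 40 genes were chosen by symbol from the table of 58219 genes: glucose transporters, every step from hexokinase to lactate dehydrogenase with its main isoforms, lactate exporters, pyruvate dehydrogenase kinases, targets of the hypoxia-inducible factors (HIF), the prolyl hydroxylases that sense oxygen, and the HIF subunits. All 40 symbols were found, each in 1 row. The cells were IMR90, human lung fibroblasts that are normal and diploid, of genotype ER-RAS (allele G12V), an oncogenic RAS protein joined to part of the oestrogen receptor that becomes active when 4-hydroxytamoxifen (4OHT) is added. They had received 100 nM 4OHT for 72 h (3 libraries A, B and C, named in the labels as committed, with a title that gives 3 days) or for 30 h (3 libraries A, B and C, named as uncommitted controls, with a title that gives 1.5 days). Both groups carried ER-RAS and received 4OHT, so time under RAS signalling and the commitment to senescence named in the title cannot be told apart. The labels do not say whether replicates were separate cultures, so the p-values rest on the scatter among these 6 libraries alone, part or all of which could be technical.

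Glycolysis splits glucose into pyruvate in the cytosol, and lactate dehydrogenase turns pyruvate into lactate when it is not burned in mitochondria. Several steps have isoforms encoded by separate genes. When oxygen is low, or when signals stabilise it, the HIF alpha subunit pairs with ARNT, binds DNA elements with the core ACGTG or GCGTG and activates glucose transporters, glycolytic enzymes, mitophagy receptors and its own hydroxylases.

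At 72 h most of these transcripts were higher than at 30 h. Of the 37 genes that reached 10 normalised counts or more in 3 or more libraries, 27 rose, 1 fell and 9 did not pass an adjusted p of 0.05 (limma), where 23.6% of all 13315 genes tested rose and 25.0% fell. The median log2 fold change was 0.59, and 0.01 over all genes tested. A rise of at least 1.5-fold was called for 20 of them and a rise of at least 2-fold for 10, against 10.2% and 5.15% of all genes. In 29 of the 37 every 72 h library lay above every 30 h library, and in 3 every 72 h library lay below, against 29.3% and 29.9% of all genes. Of the 17 enzyme genes from hexokinase to lactate dehydrogenase 12 rose and 5 did not pass. CA9 passed the filter through its 72 h libraries only, so it had to differ. SLC2A12, PDK4 and EGLN3 did not pass. Without the C libraries of both groups 27 rose and 3 fell, SLC2A3, PKM and SLC2A1. Below, the values of a gene are given in the order of libraries A, B and C, as normalised counts, that is, reads divided by the authors' size factor of the library. Means are given ± SD with n = 3 per group.

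**Figure D1:**
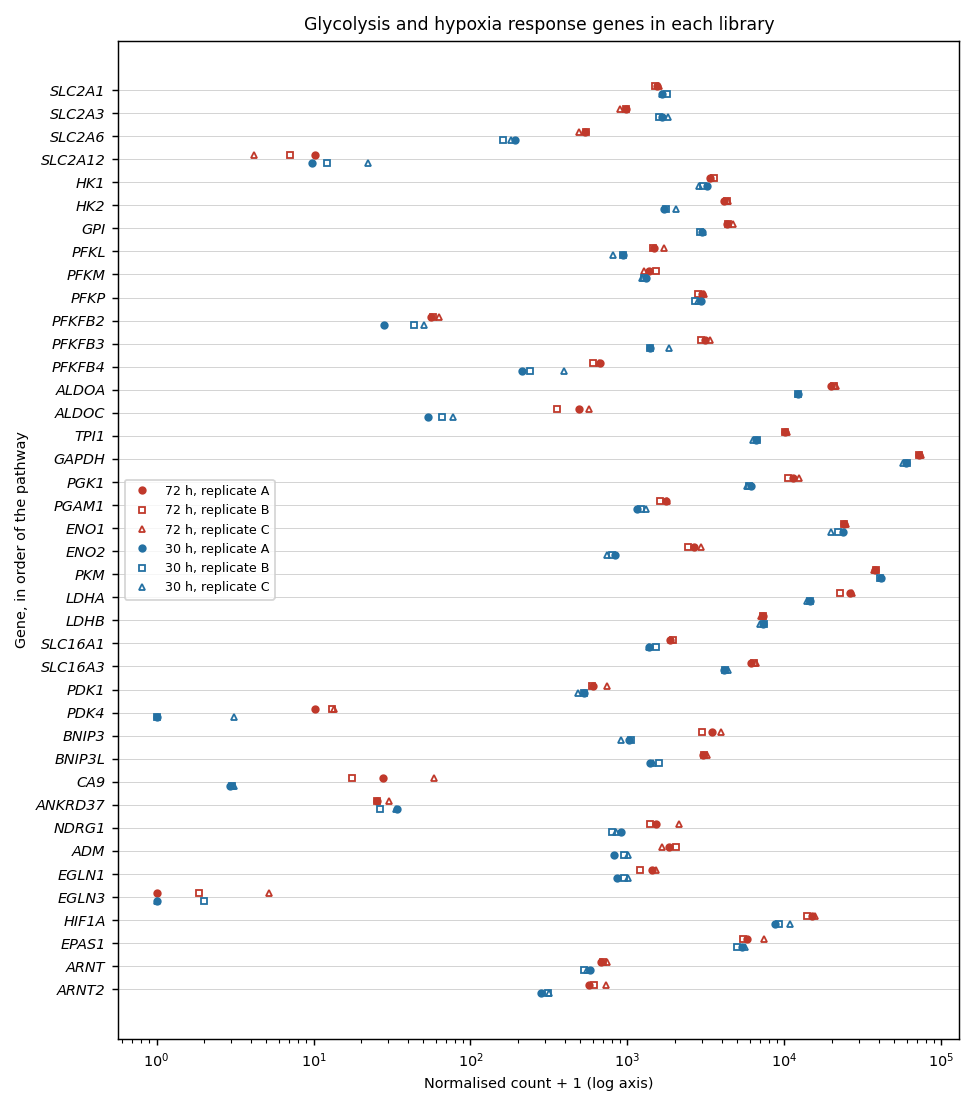
Normalised count plus 1 (log axis) of each of the 40 genes in the 3 libraries of 72 h (red, upper) and the 3 of 30 h (blue, lower), from glucose transporters at the top to HIF subunits at the bottom. ALDOC, ENO2 and BNIP3 are well apart between the groups, LDHB and PFKP overlap, and EGLN3, PDK4 and SLC2A12 lie near 0.

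The libraries held 13221152 to 15703544 reads assigned to genes. The groups separated along principal component 1 (81.3% of variance) and the C libraries from A and B along component 2 (6.99%). Mitochondrial reads made up 4.23% to 4.83% of the 72 h libraries and 3.56% to 4.06% of those of 30 h. All 10 fibroblast markers listed were expressed, with a summed level of 61769 to 71129 normalised counts at 72 h and 173900.0 to 184018 at 30 h, and 6 of them fell and 1 rose. The 5 epithelial markers summed to 4.20 to 6.98 at 72 h and 3.90 to 10.2 at 30 h, with KRT5, SFTPB and SFTPC at 0, and the 5 leukocyte markers to 10.2 to 15.7 and 7.11 to 15.8, with CD3E and MS4A1 at 0. The 4 endothelial markers summed to 401 to 478 at 72 h and 668 to 929 at 30 h, nearly all of it from TEK, which fell, with CDH5 at 0. The part of the mitochondrial share, of the fibroblast markers and of TEK in the results below was not tested. In such bulk RNA, fewer cells that express a gene and less of its RNA per cell cannot be told apart.

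The glucose transporters went in different directions. SLC2A6 (ENSG00000160326.13, chromosome 9, 133471095 to 133479137), which encodes GLUT6, a transporter found on lysosomes, had 539, 546 and 489.8 normalised counts at 72 h, against 190.1, 159.5 and 180.3 at 30 h. It rose 2.96-fold (log2 fold change 1.57 ± 0.0935 (SE), adjusted p = 1.7e-06), and its groups do not overlap. SLC2A3 (ENSG00000059804.15, chromosome 12, 7919230 to 7936275), the gene of the high-affinity transporter GLUT3, was the 1 gene of the 37 that fell, with 985, 984 and 894 normalised counts at 72 h, against 1658, 1579 and 1813 at 30 h. Its log2 fold change was -0.82 ± 0.0686 (SE), its adjusted p 1.42e-05, and every 72 h library lay below every 30 h library. Of the 50-base stretches of SLC2A3 transcripts, 16.0% also occur in other genes, chiefly its close copy SLC2A14, which had 7.31 ± 2.93 normalised counts at 72 h and 8.77 ± 0.860 at 30 h. SLC2A1, the gene of GLUT1, the widespread basal transporter and a textbook HIF target, had 1535, 1494 and 1599 normalised counts at 72 h, against 1651, 1781 and 1651 at 30 h. All 3 values of 72 h were the lower ones, yet the difference did not pass (log2 fold change -0.14 ± 0.0561 (SE), adjusted p = 0.0709), and it passed without the C libraries of both groups at -0.18 with adjusted p = 0.014. SLC2A12, the gene of GLUT12, had 19 reads over the 72 h libraries and 40 over those of 30 h, a ratio of 0.456 after size factors with a 95% exact counting interval of 0.250 to 0.807. Its values overlapped between groups, and 38.9% of its exon length lies opposite exons of TBPL1, which had 397 to 434 normalised counts at 72 h and 344 to 358 at 30 h.

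**Figure D2:**
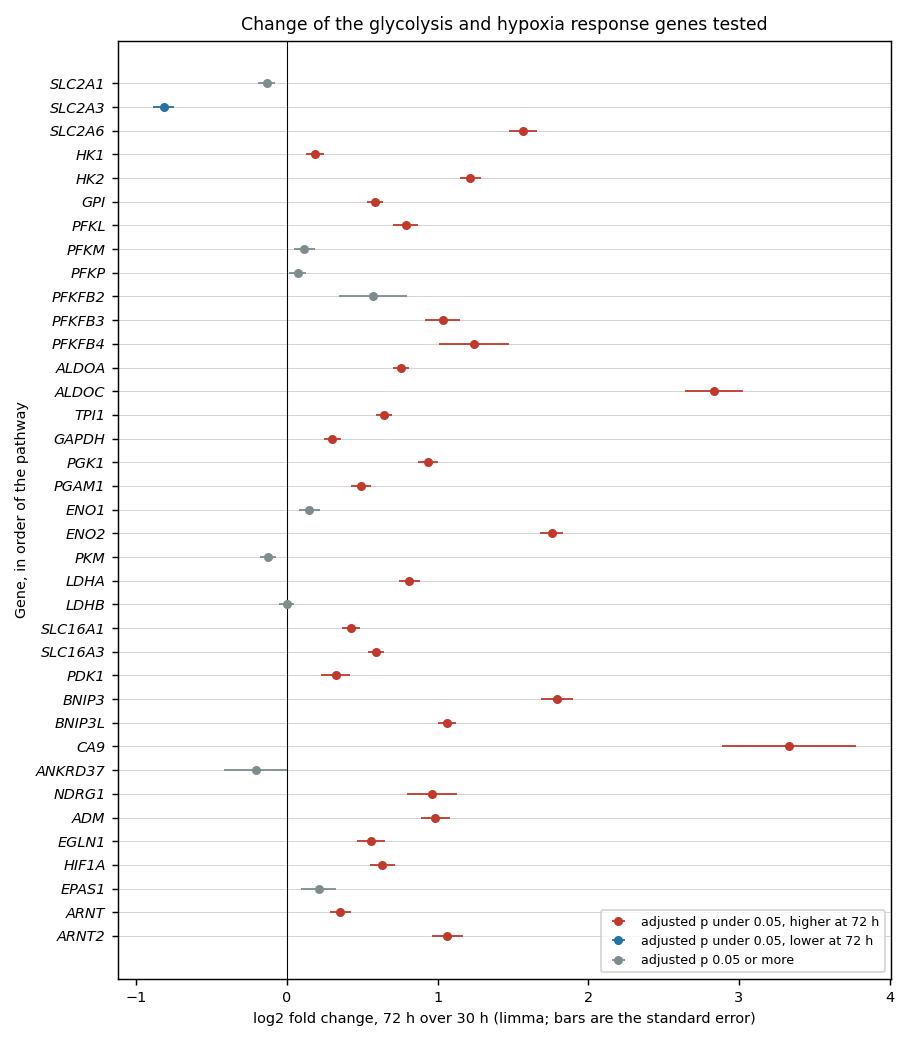
Log2 fold change of 72 h over 30 h with limma's standard error for the 37 genes tested, in order of the pathway. Red points rose, the blue point (SLC2A3) fell and grey points did not pass, and CA9 and ALDOC lie farthest to the right at 3.33 and 2.84.

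Hexokinase traps glucose in the cell as glucose 6-phosphate. HK2 (ENSG00000159399.9, chromosome 2, 74833981 to 74893359), the isoform that insulin, growth signals and hypoxia induce, had 4142, 4312 and 4364 normalised counts at 72 h, against 1719.6, 1769 and 2038 at 30 h, a 2.32-fold rise (log2 fold change 1.22 ± 0.0687 (SE), adjusted p = 1.25e-06). HK1, the constitutive isoform of most tissues, had 3376, 3542 and 3423 normalised counts at 72 h, against 3222, 3007 and 2868 at 30 h, and its groups lay apart by a small step (1.14-fold, adjusted p = 0.0219). HK1 no longer passed when 72 h replicate A or B was left out (adjusted p = 0.0502 and 0.0771) or 30 h replicate B or C (0.0741 and 0.0526). GPI, the isomerase of the next step, had 4327, 4364 and 4678 normalised counts at 72 h, against 3003, 2892 and 3009 at 30 h, and rose 1.50-fold with adjusted p = 2.16e-05.

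Phosphofructokinase commits the sugar to glycolysis, and of its 3 subunits the liver-type PFKL rose. PFKL had 1486, 1443 and 1708 normalised counts at 72 h, against 942, 931 and 812 at 30 h, and rose 1.73-fold (log2 fold change 0.79 ± 0.0819 (SE), adjusted p = 5.02e-05). PFKP, the platelet type and the most abundant of the 3 per kilobase of exon, had 2995, 2829 and 3081 normalised counts at 72 h, against 2951, 2708 and 2814 at 30 h (log2 fold change 0.07 ± 0.0565 (SE), adjusted p = 0.326). PFKM, the muscle type, had 1368, 1511 and 1279.7 normalised counts at 72 h, against 1308, 1283 and 1239 at 30 h (log2 fold change 0.12 ± 0.0677 (SE), adjusted p = 0.186). The groups of PFKP and PFKM overlap, and PFKM passed without both C libraries (log2 fold change 0.15, adjusted p = 0.0488).

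The PFKFB enzymes make and break fructose 2,6-bisphosphate, the strongest activator of phosphofructokinase. PFKFB3 (ENSG00000170525.19, chromosome 10, 6144934 to 6254644), the isoform whose kinase activity far exceeds its phosphatase activity, had 3101, 2942 and 3375 normalised counts at 72 h, against 1390.1, 1397 and 1846 at 30 h, a 2.05-fold rise with adjusted p = 0.00024. PFKFB4 (ENSG00000114268.11, chromosome 3, 48517684 to 48562015) had 668, 598 and 662 normalised counts at 72 h, against 212, 239 and 394 at 30 h, a 2.36-fold rise (log2 fold change 1.24 ± 0.231 (SE), adjusted p = 0.00553). Within the 30 h group replicate C was the highest for both genes, and without it the log2 fold changes were 1.17 and 1.51. Exons of PFKFB4 share 4.73% of their length with UCN2 on the same strand, and UCN2 also rose, with a log2 fold change of 1.45. PFKFB2, the heart isoform, was low, with 55.2, 56.7 and 61.9 normalised counts at 72 h, against 27.3, 42.7 and 49.6 at 30 h. Its 72 h libraries all lay above those of 30 h, and the difference did not pass (log2 fold change 0.57 ± 0.226 (SE), adjusted p = 0.0611). It passed with adjusted p = 0.0205 without 30 h replicate C, 0.0393 with the replicate letter as a block, 0.0397 with no filter on low counts and 0.0185 without both C libraries.

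Aldolase splits the sugar into triose phosphates, which later steps oxidise to yield ATP. ALDOC (ENSG00000109107.13, chromosome 17, 28573115 to 28577264), the aldolase of brain, had 490.5, 354 and 567 normalised counts at 72 h, against 52.6, 65.0 and 75.9 at 30 h. This 7.14-fold rise (log2 fold change 2.84 ± 0.193 (SE), adjusted p = 1.06e-05) was the widest among the glycolytic enzymes listed. ALDOA, the ubiquitous aldolase, had 19913, 20695 and 21289.6 normalised counts at 72 h, against 12171, 12218 and 12271 at 30 h, and rose 1.69-fold with adjusted p = 4.04e-06. In ALDOA 37.9% of the 50-base stretches also occur in transcripts of other genes, nearly all in AC093512.2, which overlaps it on the same strand. No gene counted carried the name AC093512.2, so RNA of ALDOA and of that gene cannot be told apart there. TPI1, triose-phosphate isomerase, had 10136, 10104 and 10432 normalised counts at 72 h, against 6633, 6737 and 6275 at 30 h, and rose 1.56-fold with adjusted p = 1.14e-05.

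GAPDH, the dehydrogenase that often serves as a loading control, was the most abundant of the 40 genes, with 71493, 71588 and 74346 normalised counts at 72 h, against 59284, 60272 and 56829.9 at 30 h. It rose by a small factor of 1.23 (log2 fold change 0.30 ± 0.0570 (SE), adjusted p = 0.0018), and with quantile normalisation the log2 fold change was 0.18 with adjusted p = 0.0961. PGK1 (ENSG00000102144.13, chromosome X, 78065188 to 78129296), the first kinase of the pathway to return ATP, had 11293, 10543 and 12433 normalised counts at 72 h, against 6145, 5986 and 5760.1 at 30 h, and rose 1.91-fold with adjusted p = 5.29e-06. PGAM1, phosphoglycerate mutase, had 1761, 1617 and 1785 normalised counts at 72 h, against 1152, 1214 and 1314 at 30 h, and rose 1.40-fold with adjusted p = 0.000257. Its transcripts share 30.5% of their 50-base stretches with other genes, chiefly AC012085.1, so its level is uncertain.

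Enolase makes phosphoenolpyruvate. ENO2 (ENSG00000111674.8, chromosome 12, 6913745 to 6923698), the neuronal enolase, had 2667, 2438 and 2929 normalised counts at 72 h, against 832, 794 and 743 at 30 h, a 3.38-fold rise (log2 fold change 1.76 ± 0.0749 (SE), adjusted p = 2.34e-07) with wide space between the groups. ENO1, the ubiquitous enolase, had 23949, 23862 and 24540.2 normalised counts at 72 h, against 23668, 22068 and 19757 at 30 h. Its groups lay side by side without overlap and the difference did not pass (log2 fold change 0.15 ± 0.0701 (SE), adjusted p = 0.109), except with no filter on low counts (adjusted p = 0.0016). PKM, pyruvate kinase, had 37734, 38160.4 and 37372 normalised counts at 72 h, against 41445, 40761 and 41246 at 30 h, lower in each 72 h library. The difference did not pass (log2 fold change -0.12 ± 0.0521 (SE), adjusted p = 0.0737), although it did without both C libraries (adjusted p = 0.0491) and with no filter on low counts (adjusted p = 0.00387). The M1 and M2 splice forms of PKM are pooled in these per-gene values.

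The fate of pyruvate lies with lactate dehydrogenase, the monocarboxylate transporters and the pyruvate dehydrogenase kinases. LDHA (ENSG00000134333.13, chromosome 11, 18394388 to 18408425), the subunit that favours lactate, had 26073, 22677 and 27091 normalised counts at 72 h, against 14508, 14659 and 13880.3 at 30 h, a 1.76-fold rise (log2 fold change 0.81 ± 0.0719 (SE), adjusted p = 1.95e-05). LDHB, the subunit that favours pyruvate, had 7343, 7282 and 7101 normalised counts at 72 h, against 7316, 7414 and 7038 at 30 h, values that overlap, with a log2 fold change of -0.0026 ± 0.0499 (SE, adjusted p = 0.972). LDHB shares 29.4% of its 50-base stretches with other genes, chiefly AC010197.2, which overlaps it on the same strand. No gene counted carried the name AC010197.2.

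SLC16A3, which encodes the lactate exporter MCT4, had 6098, 6362 and 6628 normalised counts at 72 h, against 4115, 4198 and 4356 at 30 h, and rose 1.51-fold with adjusted p = 2.22e-05. SLC16A1, which encodes MCT1, had 1869, 1947 and 1899.6 normalised counts at 72 h, against 1362, 1528 and 1377 at 30 h, and rose 1.34-fold with adjusted p = 0.000314. Both lactate transporters were thus higher in each 72 h library. PDK1, a kinase that shuts off pyruvate dehydrogenase and a HIF target, had 602, 589 and 745 normalised counts at 72 h, against 529, 529 and 481 at 30 h, and rose 1.25-fold (adjusted p = 0.0184), with adjusted p = 0.0683 without the C libraries of both groups. PDK4, the kinase isoform induced by fasting in muscle and liver, had 9, 14 and 12 reads at 72 h, against 0, 0 and 2 at 30 h. The ratio of its summed reads after size factors was 16.8 with a 95% exact counting interval of 4.32 to 144, which covers counting error only.

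Summed over their isoforms and divided by exon length, 10 of the 11 steps were higher in every 72 h library than in every 30 h library, and pyruvate kinase was lower. Of all single genes tested, 29.3% were higher and 29.9% lower in this way. A step with only 1 listed gene repeats the result of that gene. These levels are normalised counts per kilobase. Aldolase stood at 5429.6 ± 190.0 at 72 h and 3142 ± 16.8 at 30 h, a ratio of means of 1.73, and phosphoglycerate kinase at 2072 ± 173 at 72 h and 1082 ± 35.1 at 30 h, the largest ratio at 1.92. Hexokinase stood at 1252 ± 28.9 at 72 h and 785 ± 14.1 at 30 h, a ratio of 1.59. Enolase stood at 5197 ± 125 at 72 h and 4322 ± 383 at 30 h, a ratio of 1.20, and ENO1 held most of the sum at both times. Phosphofructokinase had the smallest ratio among the steps that were higher, 1.14, with 976 ± 25.3 at 72 h and 859 ± 30.9 at 30 h. Pyruvate kinase stood at 4405 ± 46.1 at 72 h and 4801 ± 41.0 at 30 h, a ratio of 0.917. The two-sided exact permutation p was 0.1 for each step, the smallest that 3 against 3 libraries can give.

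**Figure D3:**
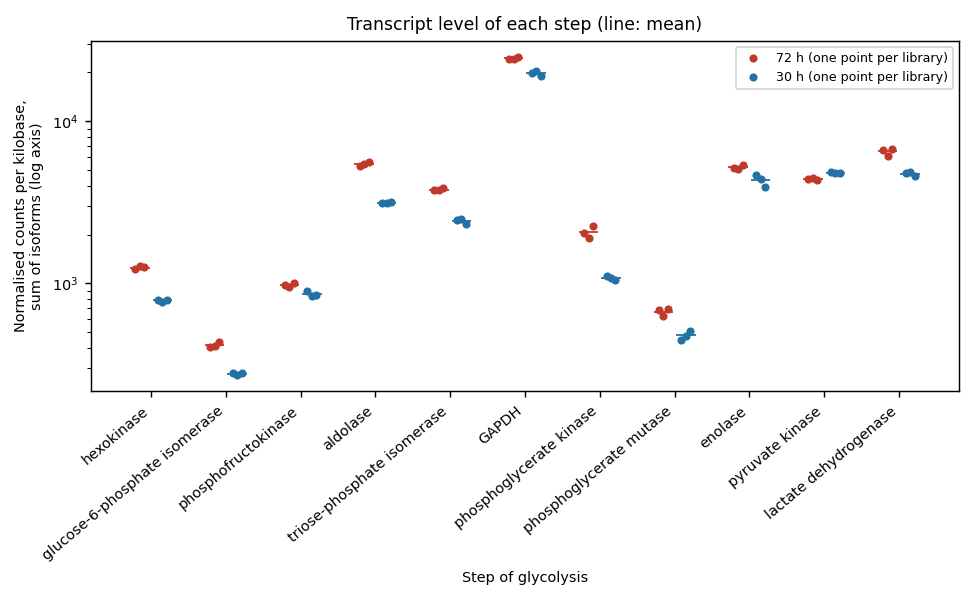
Normalised counts per kilobase of exon (log axis), summed over the listed isoforms of each glycolytic step, with 1 point per library and a line at the group mean. The 72 h points (red) lie above the 30 h points (blue) at every step but pyruvate kinase, and GAPDH is the most abundant step at 24313 and 19723.

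The 17 enzyme genes from hexokinase to lactate dehydrogenase took 1.67, 1.66 and 1.72% of all reads at 72 h, against 1.36, 1.33 and 1.28% at 30 h. The exact permutation p was 0.1. Without GAPDH and PKM, the 2 most abundant, the other 15 took 0.878, 0.859 and 0.912% of all reads at 72 h, against 0.623, 0.604 and 0.573% at 30 h, with the same p.

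The balance of related genes was compared within each library as a log2 ratio of counts per kilobase, for 15 pairs. In 10 pairs the ratio was higher in every 72 h library, in 2 it was lower and in 3 the groups overlapped. Among all genes tested, 29.3% lay higher and 29.9% lower in this way as single genes. The share among ratios of other pairs of genes was not computed, so these counts have no baseline. With 3 against 3 libraries the exact permutation p could not go below 0.1, and the values adjusted over the 15 pairs were 0.125 to 0.9, so none passed 0.05. ALDOC to ALDOA had log2 ratios of -4.92, -5.45 and -4.81 at 72 h, against -7.41, -7.11 and -6.90 at 30 h, a difference of 2.08. In each library ALDOA stayed far the more abundant, and ALDOC made up 3.19, 2.24 and 3.44% at 72 h, against 0.575, 0.707 and 0.821% at 30 h of both together. ENO2 to ENO1 had -2.86, -2.99 and -2.76 at 72 h, against -4.53, -4.49 and -4.43 at 30 h, a difference of 1.61, and ENO2 made up 12.1, 11.2 and 12.8% at 72 h, against 4.15, 4.25 and 4.43% at 30 h of both.

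At hexokinase the order of the isoforms turned round. HK2 made up 56.0, 55.8 and 57.0% at 72 h, against 35.7, 37.9 and 42.5% at 30 h of HK2 and HK1 together per kilobase, so HK1 led in each 30 h library and HK2 in each of 72 h. For LDHA and LDHB the share of LDHA per kilobase was 63.0, 59.9 and 64.7% at 72 h, against 48.8, 48.7 and 48.6% at 30 h, close to equal at 30 h. That near-equality rests on the union exon lengths used, 6210 bases for LDHA and 2983 for LDHB. Before division by length LDHA led at both times, with means of 25280.5 normalised counts at 72 h and 14349 at 30 h, against 7242 and 7256 for LDHB. Among phosphofructokinases PFKP to PFKL had log2 ratios of 1.90, 1.85 and 1.74 at 72 h, against 2.53, 2.42 and 2.68 at 30 h, a difference of -0.72, while PFKP to PFKM overlapped, with 1.70 ± 0.183 at 72 h and 1.74 ± 0.0582 at 30 h. PFKFB3 held nearly all of PFKFB3 and PFKFB2 at both times, and PFKFB4 to PFKFB3 overlapped, with log2 ratios of -2.21, -2.29 and -2.35 at 72 h, against -2.71, -2.54 and -2.22 at 30 h.

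GLUT1 against GLUT3, as SLC2A1 to SLC2A3, had log2 ratios of 1.02, 0.98 and 1.22 at 72 h, against 0.38, 0.56 and 0.25 at 30 h, higher in each 72 h library while neither gene rose. MCT4 against MCT1, as SLC16A3 to SLC16A1, differed by 0.17 only. The pairs of PDK1 with PDK4 and EGLN3 with EGLN1 rest on few or no reads of PDK4 and EGLN3, and their ratios depend on the count of 1 added before the logarithm.

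**Figure D4:**
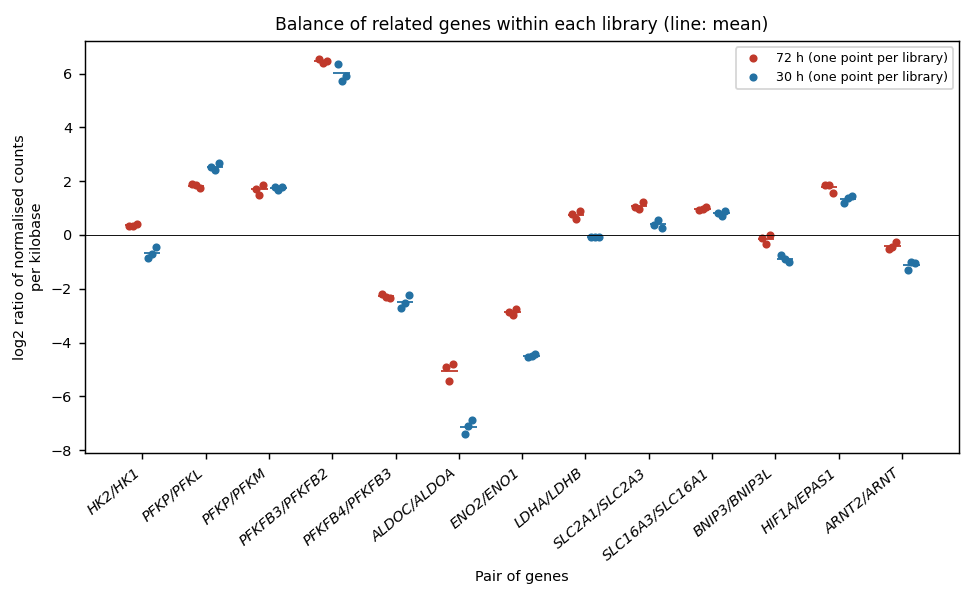
Log2 ratio of normalised counts per kilobase between related genes in each library, with a line at the group mean, for the 13 pairs with reads of both genes in every library. ALDOC/ALDOA, ENO2/ENO1 and HK2/HK1 are shifted upward at 72 h (red), PFKP/PFKL downward, and HK2/HK1 and LDHA/LDHB lie above 0 at 72 h and below 0 at 30 h. For LDHA/LDHB the side of 0 depends on the exon lengths used.

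Promoter windows of 300 bases, from 250 before to 50 after 1 gene start, were taken from RefSeq (GRCh38.p14) for 34 of the 40 genes. SLC2A3, PFKFB2, SLC16A1, BNIP3L, NDRG1 and ARNT2 had no entry. Each window was searched on both strands for ACGTG and for GCGTG, the core of the HIF element, and a palindromic CACGTG counts once on each strand. ACGTG occurred in 11 of the 23 windows of genes that rose, in 1 of the 8 of genes tested that did not pass and in none of the 3 of genes not tested, against 21.4% of 35116 windows of all genes. GCGTG occurred in 11 of the 23, 5 of the 8 and none of the 3, against 36.5% of all. At least 1 of the cores occurred in 17 of the 23 (73.9%), 6 of the 8 (75%) and none of the 3, against 48.4% of all. The windows of all genes were not limited to the genes tested and were not matched to these in base composition. The list was chosen to include HIF targets, so a share above that of all windows could be expected from the choice alone. A match is a description of the letters and not a site of binding.

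The windows of 3 enzyme pairs whose ratio was higher at 72 h are shown as examples, chosen with the values known, with matches to either core on either strand in capitals, written 5′ to 3′ on the strand of the gene. ALDOC lies at chr17:28576846-28577145 on the minus strand, ALDOA at chr16:30064029-30064328 on the plus strand (the gene has further starts), ENO2 at chr12:6914330-6914629 on the plus strand, ENO1 at chr1:8878637-8878936 on the minus strand, LDHA at chr11:18394313-18394612 on the plus strand and LDHB at chr12:21657793-21658092 on the minus strand.
ALDOC: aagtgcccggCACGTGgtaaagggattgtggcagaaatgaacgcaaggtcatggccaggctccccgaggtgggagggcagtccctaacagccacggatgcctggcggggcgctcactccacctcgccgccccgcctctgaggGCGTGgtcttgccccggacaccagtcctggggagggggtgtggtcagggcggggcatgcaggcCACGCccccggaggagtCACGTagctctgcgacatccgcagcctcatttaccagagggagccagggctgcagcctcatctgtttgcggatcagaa
ALDOA: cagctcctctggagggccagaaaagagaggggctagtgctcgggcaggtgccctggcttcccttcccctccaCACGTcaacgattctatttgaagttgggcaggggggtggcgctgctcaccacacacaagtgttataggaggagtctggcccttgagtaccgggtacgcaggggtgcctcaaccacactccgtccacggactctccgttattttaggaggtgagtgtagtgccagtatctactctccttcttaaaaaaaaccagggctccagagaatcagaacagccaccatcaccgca
ENO2: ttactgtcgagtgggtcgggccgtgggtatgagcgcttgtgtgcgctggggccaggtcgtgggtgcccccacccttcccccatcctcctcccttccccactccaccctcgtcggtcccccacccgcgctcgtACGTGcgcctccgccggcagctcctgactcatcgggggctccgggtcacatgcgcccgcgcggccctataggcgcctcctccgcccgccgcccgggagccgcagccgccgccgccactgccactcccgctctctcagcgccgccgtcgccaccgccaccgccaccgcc
ENO1: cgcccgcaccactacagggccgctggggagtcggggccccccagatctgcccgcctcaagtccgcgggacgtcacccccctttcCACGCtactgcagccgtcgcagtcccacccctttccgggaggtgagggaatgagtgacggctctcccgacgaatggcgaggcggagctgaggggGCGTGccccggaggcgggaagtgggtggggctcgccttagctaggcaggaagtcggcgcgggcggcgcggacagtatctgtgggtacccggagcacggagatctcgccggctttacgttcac
LDHA: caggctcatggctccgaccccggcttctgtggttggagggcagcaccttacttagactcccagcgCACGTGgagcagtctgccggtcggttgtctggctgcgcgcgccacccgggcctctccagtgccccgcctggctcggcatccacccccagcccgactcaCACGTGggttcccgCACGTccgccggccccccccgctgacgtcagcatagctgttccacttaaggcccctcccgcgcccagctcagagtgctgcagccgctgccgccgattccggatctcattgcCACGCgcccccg
LDHB: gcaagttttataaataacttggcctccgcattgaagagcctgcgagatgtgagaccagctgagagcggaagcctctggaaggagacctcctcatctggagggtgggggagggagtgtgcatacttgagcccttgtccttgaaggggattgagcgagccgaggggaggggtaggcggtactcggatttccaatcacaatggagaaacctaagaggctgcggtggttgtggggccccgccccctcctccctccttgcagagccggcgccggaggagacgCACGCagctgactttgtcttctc
LDHA held 5 matches to ACGTG, where 2 palindromes give 4 of them, and 1 to GCGTG, while LDHB held 0 and 1. ALDOC held 3 and 2, with 1 palindrome, against 1 and 0 in ALDOA. ENO2 held 1 and 0, against 0 and 2 in ENO1. Other pairs with a higher ratio differed in this: HK2 held 2 and 1, against 0 and 0 in HK1, while HIF1A and EPAS1 held 0 and 1 each. The windows of HK2 and HK1 were unlike in composition, with 74.3% G and C and 38 CG pairs in HK2, against 46.7% and 1 in HK1. Only 1 start per gene was searched, so any other start of HK1 was not covered, and which start these cells use was not tested. Of the other windows not shown, BNIP3 held 2 and 4 and PGK1 held 3 and 1, both genes that rose, but ANKRD37, which did not, held 3 and 0.

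Of the HIF targets outside glycolysis, both mitophagy receptors rose. BNIP3 (ENSG00000176171.11, chromosome 10, 131966455 to 131982013), which marks mitochondria for breakdown, had 3438, 2972 and 3956 normalised counts at 72 h, against 1018, 1056 and 903 at 30 h, a 3.46-fold rise (log2 fold change 1.79 ± 0.106 (SE), adjusted p = 6.49e-06). BNIP3L, its relative, also called NIX, had 3033, 3063 and 3209 normalised counts at 72 h, against 1398, 1594 and 1462 at 30 h, and rose 2.09-fold with adjusted p = 1.33e-06. Both lay clear of their 30 h values, and the log2 ratio of BNIP3 to BNIP3L was higher by 0.73 at 72 h, with no overlap between groups (exact permutation p = 0.1). NDRG1, a stress-induced gene used as a hypoxia marker, had 1512, 1385 and 2143 normalised counts at 72 h, against 909.5, 791 and 838 at 30 h, and rose 1.95-fold with adjusted p = 0.00351. ADM, the gene of the vasodilator peptide adrenomedullin, had 1829, 2047 and 1655 normalised counts at 72 h, against 824, 956 and 1012 at 30 h, and rose 1.98-fold with adjusted p = 5.82e-05.

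CA9, the gene of a surface carbonic anhydrase that is close to silent without hypoxia, was low in these cells. It had 26, 19 and 55 reads at 72 h, against 2, 2 and 2 at 30 h. The ratio of summed reads was 16.0 after size factors, with a 95% exact counting interval of 7.10 to 44.7 (limma adjusted p = 0.000226). Replicate C held most of the 72 h reads, and without it, a setting chosen after seeing the data, the ratio was 10.4 (4.44 to 29.9). With any 72 h library left out CA9 no longer passed the filter on low counts. The fitted log2 fold change of 3.33 depends on the count added, and was 2.31 with 5 added, 3.94 by edgeR and 4.05 by DESeq2. Exons of ARHGEF39 lie opposite 38.5% of its exon length, and ARHGEF39 fell, with a log2 fold change of -0.74. ANKRD37, a nuclear ankyrin protein and HIF target, did not pass: it had 24.5, 24.4 and 29.4 normalised counts at 72 h, against 33.1, 25.4 and 32.7 at 30 h (log2 fold change -0.21 ± 0.212 (SE), adjusted p = 0.45). Its values overlap, and 35.2% of its exon length lies opposite UFSP2, which fell, with a log2 fold change of -0.43. Whether reads were counted by strand is unknown here, so reads of a gene and of its partner on the other strand cannot be told apart.

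The prolyl hydroxylases use oxygen to mark HIF alpha subunits for destruction, and EGLN1 and EGLN3 are in turn HIF targets. EGLN1, the gene of PHD2, the main oxygen sensor, had 1429, 1195 and 1525 normalised counts at 72 h, against 862, 944 and 1003 at 30 h, and rose 1.47-fold (log2 fold change 0.56 ± 0.0947 (SE), adjusted p = 0.00119). EGLN3, the gene of PHD3, had 5 reads over the 3 libraries of 72 h and 1 over those of 30 h, a ratio of 4.80 with an interval of 0.538 to 227, so no difference was detectable at this depth.

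Among the HIF subunits, HIF1A (ENSG00000100644.16, chromosome 14, 61695513 to 61748259), the alpha subunit of HIF-1, had 14899.9, 13831 and 15628 normalised counts at 72 h, against 8659, 9206 and 10801 at 30 h, a 1.55-fold rise (log2 fold change 0.63 ± 0.0846 (SE), adjusted p = 0.000257). EPAS1, the alpha subunit of HIF-2, had 5774, 5450.5 and 7420.0 normalised counts at 72 h, against 5373, 4971 and 5646 at 30 h, with overlap and a log2 fold change of 0.21 ± 0.114 (SE) (adjusted p = 0.168, and 0.0235 with the replicate letter as a block and 0.044 with no filter on low counts). Per kilobase HIF1A was the more abundant, with 2871 ± 175 normalised counts per kilobase at 72 h and 1855 ± 216 at 30 h, against 851 ± 145 at 72 h and 730.0 ± 46.5 at 30 h for EPAS1. The shared partner ARNT, or HIF-1 beta, had 679.5, 699 and 744 normalised counts at 72 h, against 580.0, 529 and 549 at 30 h, and rose 1.28-fold with adjusted p = 0.00187. ARNT2, a partner best known from neurons, had 564, 608 and 730.0 normalised counts at 72 h, against 279, 312 and 313 at 30 h, and rose 2.09-fold with adjusted p = 3.09e-05. The log2 ratio of ARNT2 to ARNT was -0.41 ± 0.125 at 72 h and -1.12 ± 0.157 at 30 h, so ARNT led at both times. HIF alpha subunits are controlled largely through protein stability, which these RNA counts do not measure.

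Most further genes of the hypoxia response rose too. Of 35 such genes, 33 passed the filter, 21 rose, 3 fell and 9 did not pass, with a median log2 fold change of 0.49, where 23.6% of all genes tested rose and 25.0% fell. PPFIA4, 1 of the 21, passed the filter through its 72 h libraries only, so it had to differ. AK4, a mitochondrial adenylate kinase, had 148 ± 68.9 normalised counts at 72 h and 12.1 ± 2.19 at 30 h (log2 fold change 3.42 ± 0.300 (SE), adjusted p = 2.37e-05). CA12, another surface carbonic anhydrase, had 709 ± 128 normalised counts at 72 h and 77.6 ± 12.1 at 30 h (log2 fold change 3.17, adjusted p = 8.05e-07), and MIR210HG, the host transcript of the hypoxia-induced miR-210, had 52.3 ± 9.17 normalised counts at 72 h and 8.73 ± 3.08 at 30 h (5.64-fold, adjusted p = 0.000117). VEGFA, the angiogenic growth factor, named after its value was seen, had 8242 ± 732 normalised counts at 72 h and 2029.8 ± 173 at 30 h, a log2 fold change of 2.02 ± 0.0809 (SE) (adjusted p = 2.2e-07). Among the 3 that fell, LOX, the collagen cross-linking enzyme lysyl oxidase, had 894 ± 82.3 normalised counts at 72 h and 5196 ± 273 at 30 h (log2 fold change -2.54, adjusted p = 3.28e-08). STC2, the hormone stanniocalcin 2, named after its value was seen, had a log2 fold change of -0.67 (adjusted p = 0.03). STC2 no longer passed when 72 h replicate A was left out (adjusted p = 0.0539), or likewise 30 h replicate B (0.078) or 30 h replicate C (0.12). With the replicate letter as a block its adjusted p was 0.0984.

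Of 34 other genes of glucose transport, glycolysis and pyruvate handling, 15 passed the filter, 6 rose, 4 fell and 5 did not pass, with a median log2 fold change of 0.17. The share that fell was near the 25.0% of all genes, of which 23.6% rose. Among those outside the filter were PGK2, PGAM2 and PKLR, isoforms best known from testis, muscle and liver, which had 0 reads in all 6 libraries. SLC2A13, a transporter of myo-inositol, had 1124 ± 139 normalised counts at 72 h and 452 ± 85.1 at 30 h (log2 fold change 1.32, adjusted p = 0.000231). SLC16A7, the monocarboxylate transporter MCT2, had 639 ± 98.9 normalised counts at 72 h and 266 ± 23.2 at 30 h (log2 fold change 1.25, adjusted p = 2.97e-05). The 4 that fell were ENO3, the muscle enolase, at -0.84, MPC1 and MPC2, the subunits of the carrier that brings pyruvate into mitochondria, at -0.63 and -0.40, and PDP1, the phosphatase that turns pyruvate dehydrogenase on, at -0.52 (adjusted p = 0.000914, 0.000582, 0.00125 and 0.00138). MPC2 and PDP1 were named after their values were seen. MPC1 had 146, 158 and 142 normalised counts at 72 h, against 219, 239 and 233 at 30 h, and its groups do not overlap.

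Of the pathways that branch from glycolysis or follow it, serine synthesis was lower throughout. All 5 genes of serine synthesis and its link to one-carbon metabolism fell, where 25.0% of all genes did, with a median log2 fold change of -0.85. PHGDH, the enzyme that draws 3-phosphoglycerate out of glycolysis, had 245, 279 and 329 normalised counts at 72 h, against 1006, 808 and 823 at 30 h (log2 fold change -1.63 ± 0.123 (SE), adjusted p = 1.4e-05). PSAT1, PSPH and SHMT1, the next enzymes, had -1.28, -0.64 and -0.85 (adjusted p = 0.00595, 0.00209 and 0.00122), and PSAT1 had adjusted p = 0.0539 with the replicate letter as a block. SHMT2, named after its value was seen, had -0.20 (adjusted p = 0.0132), which no longer passed when 72 h replicate A (0.0526) or 30 h replicate A (0.0627) was left out.

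Of 11 genes of the pentose phosphate pathway, 10 passed the filter, 2 rose, 4 fell and 4 did not pass, with a median log2 fold change of -0.15, few genes to set against the 23.6% of all genes that rose and the 25.0% that fell. PRPS1, which makes the precursor of nucleotides, had a log2 fold change of -0.60, H6PD, an enzyme of the endoplasmic reticulum, 0.51, and PGD, of the oxidative branch, 0.26 (adjusted p = 0.000241, 0.000187 and 0.0067).

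Of 22 genes of pyruvate dehydrogenase, pyruvate carboxylase and the citric acid cycle, 22 passed the filter, 1 rose, 6 fell and 15 did not pass, with a median log2 fold change of -0.06. The share that fell was near the 25.0% of all genes, and 23.6% of all genes rose. FH, fumarate hydratase, had 799.8 ± 32.9 normalised counts at 72 h and 1304 ± 81.6 at 30 h, SUCLG1, a subunit of succinyl-CoA ligase, had 672 ± 56.3 normalised counts at 72 h and 1061 ± 25.3 at 30 h, and PDHA1, the catalytic subunit of pyruvate dehydrogenase, had 655 ± 23.7 normalised counts at 72 h and 825 ± 34.7 at 30 h (log2 fold changes -0.70, -0.66 and -0.33, adjusted p = 2.52e-05, 5.84e-05 and 0.00182). PC, pyruvate carboxylase, had -0.59 (adjusted p = 0.00591).

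Of 10 genes of glycogen metabolism, 9 passed the filter, 3 rose, 5 fell and 1 did not pass, with a median log2 fold change of -0.28, where 23.6% of all genes rose and 25.0% fell. PGM1, the phosphoglucomutase that joins glycogen to glycolysis, had 1274, 1099.5 and 1640.5 normalised counts at 72 h, against 279, 289.5 and 335 at 30 h, a 4.38-fold rise with adjusted p = 2.39e-05 and no overlap. GYS1 and GBE1, which build and branch glycogen, had log2 fold changes of 0.83 and 0.56 (adjusted p = 5.93e-06 and 0.00243), and PYGL, a phosphorylase that breaks it down, -0.92 (adjusted p = 0.000484). PYGB, a more abundant phosphorylase, also fell, with 2404 ± 224 normalised counts at 72 h and 3204 ± 47.9 at 30 h (log2 fold change -0.42, adjusted p = 0.000768). For PYGL these were 239 ± 8.43 and 459 ± 90.8. GYG1, which primes glycogen, and UGP2, which makes its precursor UDP-glucose, fell as well, with log2 fold changes of -0.36 and -0.28 (adjusted p = 0.00149 and 0.0144). PYGB, GYG1 and UGP2 were named after their values were seen. The adjusted p of UGP2 reached 0.066 among the alternatives. Differences between these lists and the glycolysis and hypoxia genes were not tested.

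**Figure D5:**
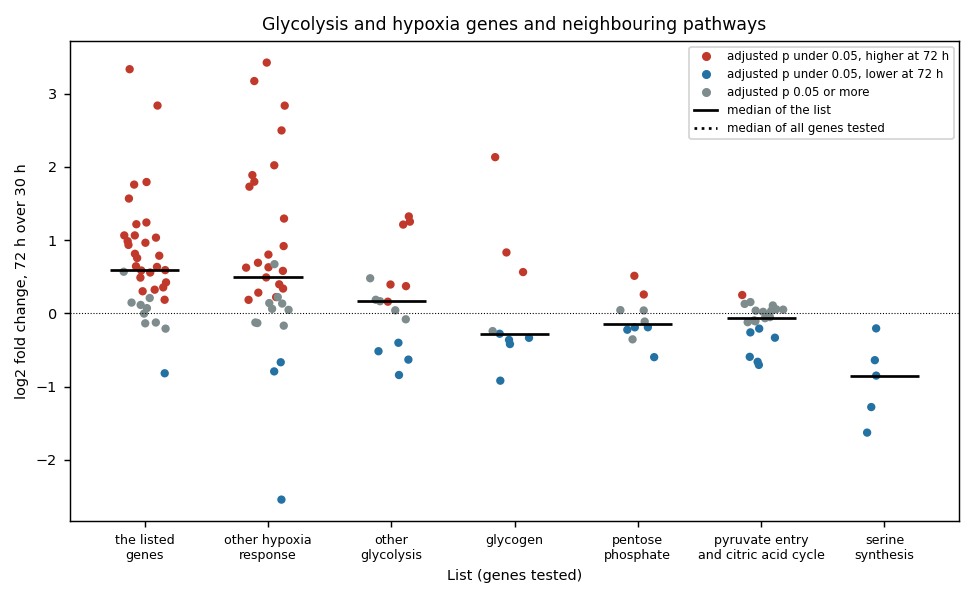
Log2 fold change of 72 h over 30 h for the genes tested in each list, with 1 point per gene and a line at the median of the list. The medians run from 0.59 for the glycolysis and hypoxia genes listed and 0.49 for the other hypoxia genes to -0.85 for serine synthesis, and the dotted line marks the median of all genes tested.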

How the data were processed

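RNA of 6 samples was made into libraries with a KAPA mRNA kit, per the labels' protocols, and sequenced. Per the submitters' processing notes, reads were processed with Trimmomatic 0.35, STAR 2.5.1b, GRCh38 (hg38) and DESeq2 1.18.1, while counter, annotation and strandedness are not stated there. The values used are a signal deposited by the authors, reads scaled by a size factor per library. Whole reads were recovered, with 100% of values whole within 0.01. Log2 fold changes and p-values of the authors, named in the file's header, served as an alternative only. No sample column was left out.

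Values were compared as log2(value + 1), with limma 3.58.1 (trend, robust) in R 4.3.3, over genes with at least 10 in at least 3 libraries, with Benjamini-Hochberg adjustment over all of them and a threshold of 0.05. A fold change on this scale understates low genes. The limma fit was tried on simulated data, while the ratios, summed levels, counting intervals and promoter search were not. Alternatives were other added counts (0.5, 5), filters (none, 50) and normalisations (TMM, quantile), edgeR 4.0.16 and DESeq2 1.42.0 on recovered reads, the authors' table, a replicate block and each library left out. The members and lists were chosen with earlier results of these data known. Genes are given per library where called with a change of 1.5-fold or more and averaging 50 or more in the group where they are higher, or called downward, with their isoforms and the HIF subunits. Of each other list, up to 4 called genes that average 50 or more are named by the size of their change. Exon lengths, overlaps and shared 50-base stretches come from GENCODE 29 (union of exons), and coordinates from the deposited table. Intervals cover counting error only. Some genes of the other lists are counted but not reported by name here.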

Additional observations from a re-analysis of the deposited data

How the results depend on the processing

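The count of all genes called ran from 5121 to 6835 over the 17 alternatives, and that of members that rose from 25 to 31. The members that fell numbered 3 with no filter (SLC2A3, PKM and SLC2A12, the last at -1.04 with adjusted p = 0.0455) and 3 without both C libraries, an alternative chosen after seeing the data, and 1 otherwise. The median log2 fold change of members was 0.67 with quantile normalisation, against 0.59, and ran from 0.56 to 0.63 with a library left out. For 27 of the 37 members each alternative that gave a value kept the direction and the side of the threshold. Among these, CA9 had a value in 12 of 17, since it left the test with the filter of 50, with any single 72 h library left out and without both C libraries, and ANKRD37 in 16. Of 623 member values 602 kept both, 6 lost the call, 11 gained it and 4 reversed, all LDHB: 0.058 with quantile normalisation, and -0.024 to 0.013 with a library left out (above 0 without 72 h replicate C, 30 h replicate A or 30 h replicate B). The ratio of EGLN3 to EGLN1 reversed to -0.27 with 5 added and ran from -0.37 to 0.77 with a library left out (below 0 without 72 h or 30 h replicate C), and that of PFKP to PFKM ran from -0.13 to 0.054 (above 0 without 72 h replicate B). For these reversals the cause was not tested. Filters do not enter the ratios.

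Among other lists, with 1 library left out, glycogen genes that fell numbered 3 to 5 (3 without 72 h replicate A, 30 h replicate A or 30 h replicate B, against 5), pentose phosphate genes that fell 2 to 4 (2 without 72 h replicate A or B, against 4) and citric acid cycle genes that rose 1 to 2 (2 without 72 h replicate C, against 1). Pentose phosphate genes that fell numbered 2 by DESeq2 and in the authors' deposited table. Citric acid cycle genes that rose numbered 2 with the filter of 50, 3 with quantile normalisation and 2 without both C libraries. The other hypoxia genes that fell numbered 1 with no filter, 1 with the replicate block and 5 without both C libraries, against 3. The letters share only a letter: deviations from the group means correlated at 0.00696 (A), 0.172 (B) and 0.185 (C), and 4 of 6 libraries were closest to their own letter. With the replicate block 29 members rose and 1 fell, of 6723 genes called. Depth limits CA9, PDK4, EGLN3 and SLC2A12.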
